A study of Mus musculus with 72 samples.

Results

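At 4103 places in the genome of mouse embryonic stem cells (ESCs), OCT4 was called in both cultures that lack the nucleosome-binding proteins HMGN1 and HMGN2 and in neither wild-type culture, at regions where the wild-type cultures had no peak of NANOG, SOX2, Klf4 or CTCF. These gained unbound sites were found by merging the peaks of the 4 OCT4 ChIP-seq lists where they overlapped by at least 1 bp, which gave 35163 OCT4 sites. Of these sites, 15049 overlapped no wild-type peak of the other 4 factors, and the 4103 members made up 27.3% of them. Among all 35163 sites, 10116 (28.8%) were called in both knock-out lists and neither wild-type list, and 6013 of those lay on a wild-type peak of another factor. The members were thus chosen by the calls of OCT4 in all 4 lists and of the other factors in wild-type cells, and the number and strength of the OCT4 peaks are given below as a description without a test.

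The study mapped chromatin proteins by ChIP-seq in mouse cells of the C57BL/6 strain that were either wild type (WT, Hmgn1+/+n2+/+) or double knock-out (DKO, Hmgn1-/-n2-/-), with 2 biological replicates per genotype, in ESCs, embryonic fibroblasts (MEFs) and splenic B cells. The ESC lists used here came from antibodies against OCT4, NANOG, SOX2, Klf4 and CTCF, 20 lists in all, and both genotypes were grown without added treatment as far as the labels say. The labels do not give the clonal origin of the cultures, so whether a difference belongs to the missing proteins or to a particular cell line cannot be told apart. In bulk cultures, binding in more of the cells and more binding per cell cannot be told apart either. OCT4 peaks lay within 10 kb of the start of 6 to 8 of 10 ESC marker genes in each list, and within 10 kb of 0 or 1 of 6 fibroblast markers and 0 or 1 of 3 endoderm markers. Near the deleted genes, peaks do not check the genotype: the OCT4 lists held no peak within 1000 bp of Hmgn1 or Hmgn2 in either genotype.

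HMGN proteins bind nucleosomes without recognising a DNA sequence and are abundant at enhancers and promoters, where they compete with linker histone H1. OCT4, encoded by Pou5f1, is a POU-domain factor at the centre of the pluripotency network. It reads the octamer, commonly beside a SOX2 site in a composite element, and can also bind as a dimer of POU factors to palindromic octamer-related elements such as the MORE sequence. NANOG, SOX2 and Klf4 share many enhancers with OCT4 in ESCs, whereas CTCF marks insulators and loop anchors.

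The sequences below show what lay under the summits of strong members, and they carry the contrast on which the motif results turn, between members with an octamer, with a palindrome and with a composite element. Each is the forward strand of mm9, 50 bp to either side of the OCT4 summit, with matches to the octamer with 1 free base (ATGCNAAT), the palindrome ATGCGCAT, the MORE core ATGCATATG, the composite TTGTNATGC or the element ACTACAATT in capitals, on either strand.
Octamer, near Fez1, chr9:36689660-36689760: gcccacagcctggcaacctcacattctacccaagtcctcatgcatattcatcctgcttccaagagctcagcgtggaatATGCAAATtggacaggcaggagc
Octamer, near Inhbb, chr1:121285366-121285466: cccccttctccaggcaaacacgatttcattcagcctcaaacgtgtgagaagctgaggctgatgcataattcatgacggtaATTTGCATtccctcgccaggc
Octamer, in an intron of Plp2, chrX:7247162-7247262: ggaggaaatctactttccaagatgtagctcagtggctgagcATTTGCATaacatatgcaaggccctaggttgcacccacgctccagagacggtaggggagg
Palindrome, near Phxr4, chr9:12937465-12937565: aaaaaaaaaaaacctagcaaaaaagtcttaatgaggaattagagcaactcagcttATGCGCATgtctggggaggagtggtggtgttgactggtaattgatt
Palindrome, near Spopl, chr2:23446335-23446435: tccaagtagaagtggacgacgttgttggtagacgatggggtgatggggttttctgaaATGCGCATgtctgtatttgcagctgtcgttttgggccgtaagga
Palindrome, in an intron of Rgl1, chr1:154505064-154505164: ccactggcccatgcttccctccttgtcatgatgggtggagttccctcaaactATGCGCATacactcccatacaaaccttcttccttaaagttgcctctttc
Palindrome, near Etv3, chr3:87350348-87350448: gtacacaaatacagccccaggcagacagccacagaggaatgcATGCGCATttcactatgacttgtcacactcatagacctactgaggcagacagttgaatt
MORE core overlapping an octamer, in an intron of Ror2, chr13:53270745-53270845: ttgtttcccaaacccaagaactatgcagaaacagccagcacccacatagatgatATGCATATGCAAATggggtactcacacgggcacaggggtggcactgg
Composite, in an intron of Bicc1, chr10:70601374-70601474: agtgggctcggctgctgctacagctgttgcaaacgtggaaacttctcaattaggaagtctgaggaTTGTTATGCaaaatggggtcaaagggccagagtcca
Composite overlapping an octamer, near Cdc73, chr1:145208188-145208288: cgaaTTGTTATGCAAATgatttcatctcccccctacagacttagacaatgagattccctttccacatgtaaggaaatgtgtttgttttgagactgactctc
ACTACAATT element, upstream of Tbx6, chr7:133924217-133924317: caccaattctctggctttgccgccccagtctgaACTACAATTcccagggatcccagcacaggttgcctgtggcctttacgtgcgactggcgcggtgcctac
ACTACAATT element, upstream of Zranb3, chr1:129999246-129999346: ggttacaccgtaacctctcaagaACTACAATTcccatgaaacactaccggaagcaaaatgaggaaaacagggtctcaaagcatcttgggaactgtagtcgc
No match, near 2610039C10Rik, chr16:90658487-90658587: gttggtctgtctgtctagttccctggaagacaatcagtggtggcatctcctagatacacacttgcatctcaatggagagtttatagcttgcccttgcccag

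The WT OCT4 lists held 11140 and 12627 peaks and the DKO lists 26742 and 30864. The lowest background under a summit, the only trace of depth in the lists, was 0.924 and 1.31 reads in the WT lists and 1.03 and 1.43 reads in the DKO lists, so the genotypes overlapped and the DKO values were the higher on average. At the 15049 sites without a WT peak of the other factors, 6553 were called in 1 DKO list alone, 1204 in both DKO lists and 1 WT list, and 2330 in all 4 lists. The mirror class, called in both WT lists and neither DKO list and free of DKO peaks of the other factors, held 45 sites and is called lost here.

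OCT4 peaks were stronger in DKO cells also where all 4 lists called them. Fold enrichment is the ratio of reads at the summit to local background after 1 is added to each. At the 2330 unbound sites called in all 4 lists, its median was 10.4 and 11.1 in the WT lists and 16.6 and 18.3 in the DKO lists. Both DKO values exceeded both WT values at 1904 of these sites (81.7%), and the median ratio of mean DKO to mean WT enrichment was 1.59. At the 7104 sites that were called in all 4 lists and lay on a WT peak of another factor, the same ratio was 2.0 and both DKO values were higher at 6701 sites (94.3%). OCT4 enrichment was thus higher in DKO cells at most sites called in every list, and for this an effect of the genotype and a difference in the efficiency of the immunoprecipitation cannot be told apart. With lists of equal length, made of the 11140 strongest peaks of each, the rule gave 295 gained and 427 lost unbound sites, and 287 of the 4103 members were among the gained. Thinning all OCT4 libraries to the lowest background left 3903 gained and 43 lost sites. With 1 DKO list alone deciding, 8496 sites were gained without DKO replicate 1 and 6367 without DKO replicate 2.

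**Figure D1:**
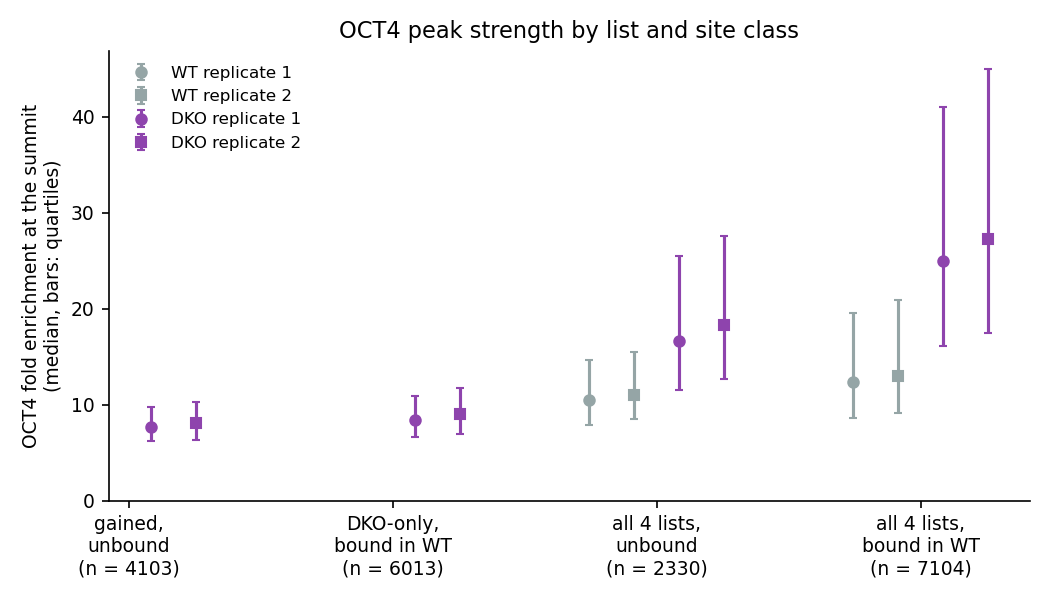
Median OCT4 fold enrichment at the summit (y axis, bars from the first to the third quartile) in each WT (grey) and DKO (purple) list for 4 classes of OCT4 sites (x axis). The members were not called in WT cells and have DKO medians of 7.72 and 8.06, below the WT medians of 10.4 and 11.1 at unbound sites called in all 4 lists, where both DKO medians lie above both WT medians.

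The members were mostly weak peaks. Their median fold enrichment was 7.72 in DKO replicate 1 and 8.06 in DKO replicate 2, from a median of 17 and 23 reads at the summit. The deposited −log10 q, the strength of the call, had a median of 11.2 in replicate 1, ranging from 2.03 to 114, and a median of 14.4 in replicate 2, ranging from 2.05 to 139. In both DKO lists, 3647 members reached a −log10 q of 5, 2198 reached 10, 601 reached 20 and 24 reached 50. The lists ended at different strengths, and 4081 members (99.5%) passed in both DKO lists the −log10 p of 4.85 at which the strictest of the 4 lists ended. The 10 members nearest the threshold had a lower −log10 q of 2.03 to 2.16. Just outside the rule, the sites called in 1 DKO list alone had a median of 7.07, and those called in both DKO lists and 1 WT list had a median WT value of 10.6 and a median lower DKO value of 17.4. The nearest WT OCT4 peak lay within 1000 bp of 166 members and within 10000 bp of 882, so most members stood apart from the OCT4 peaks of WT cells.

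**Figure D2:**
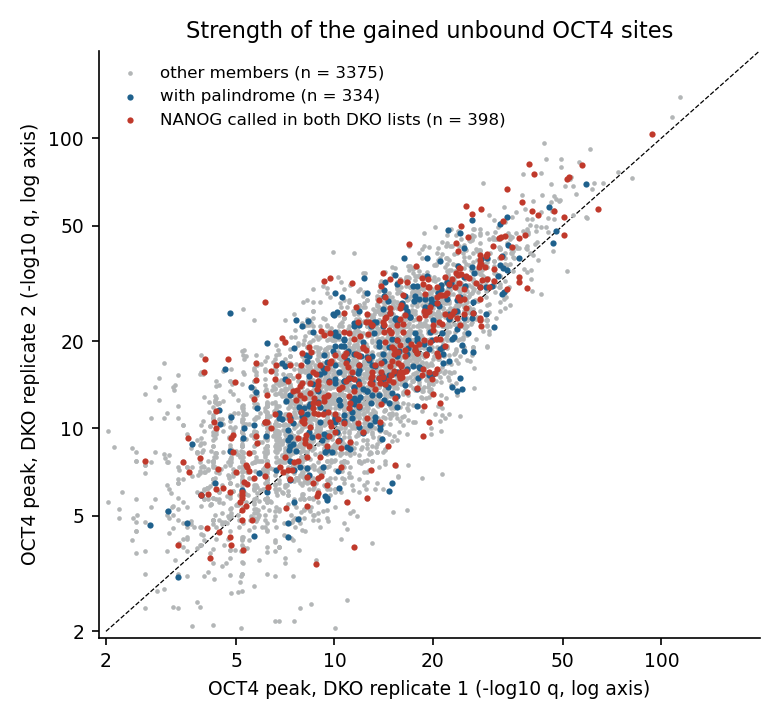
−log10 q of the OCT4 peak in DKO replicate 1 (x axis) and replicate 2 (y axis), both on log axes, for the 4103 members. Red points are the 398 members with NANOG called in both DKO lists, blue points the 334 with a palindrome (4 have both and are drawn red), grey points the other 3375, and all 3 kinds spread over most of the range.

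The strongest member lay at chr16:90658377-90658698, 69112 bp downstream of the start of 2610039C10Rik and outside genes, with 79 reads over a background of 1.03 in DKO replicate 1 and 99 reads over 1.43 in replicate 2, a fold enrichment of 39.3 and 41.1. No other factor was called there in DKO cells, its 201 bp window held none of the motifs searched, and the nearest WT OCT4 peak was 48747 bp away. The next, 11622 bp from the start of Fez1, a neuronal transport adaptor, had enrichments of 36.7 and 34.6 over the octamer printed above and likewise no other factor. The third, at chr7:55691940-55692387 and 19569 bp from Mrgprb1, a gene of the Mas-related G protein-coupled receptor family, came with other factors. Its enrichments were 33.9 and 32.9, and both NANOG (−log10 q of 107 and 87.8) and SOX2 (19 and 30.3) were called in both DKO lists. The nearest WT peak of OCT4 was 150088 bp away and the nearest of any of the other 4 factors 150067 bp away, so a cluster of 3 pluripotency factors was called in DKO cells within a long stretch without a WT call.

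The remaining 7 of the 10 strongest members had enrichments of 19.7 to 30.5 in the DKO lists. They lay near Dscam, a neuronal adhesion gene, Inhbb, which encodes an activin subunit, Gk5, Tbx6, a mesodermal T-box factor, Zranb3, a DNA helicase of the replication stress response, Plp2 and Phxr4. At 5 of these 7, near Dscam, Gk5, Tbx6, Plp2 and Phxr4, no other factor was called in any DKO list. At Inhbb and Zranb3, NANOG was called in 1 DKO list, with a −log10 q of 6.79 and 9.14. The nearest WT peak of another factor was 11 bp from the Tbx6 site, 201 bp from Zranb3, 292 bp from Gk5 and 342 bp from Plp2. It was 3018, 8412 and 9420 bp from the sites near Dscam, Phxr4 and Inhbb.

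The DKO lists of the other factors were not used by the rule and show whether a gained OCT4 peak came with company. The rule had removed every site with a WT peak of these factors, so few DKO peaks could remain: 3299 members (80.4%) overlapped no NANOG, SOX2, Klf4 or CTCF peak of any DKO list, beside 84.5% of all 15049 unbound OCT4 sites and 84.9% of those called in all 4 lists. The members thus had company slightly more often than unbound OCT4 sites at large, a difference given without a test. NANOG, the homeodomain factor of the pluripotency network, was the most frequent partner, called at 564 members in DKO replicate 1, at 600 in replicate 2 and at 398 (9.70%) in both, beside 7.04% of all OCT4 sites without a WT peak of the other factors. SOX2 was called at 33, 32 and 16 members (0.390% in both lists, beside 0.206%). CTCF was called at 26, 20 and 11 (0.268%, beside 0.199%) and Klf4 at 6, 10 and 2 (0.0487%, beside 0.0465%).

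**Figure D3:**
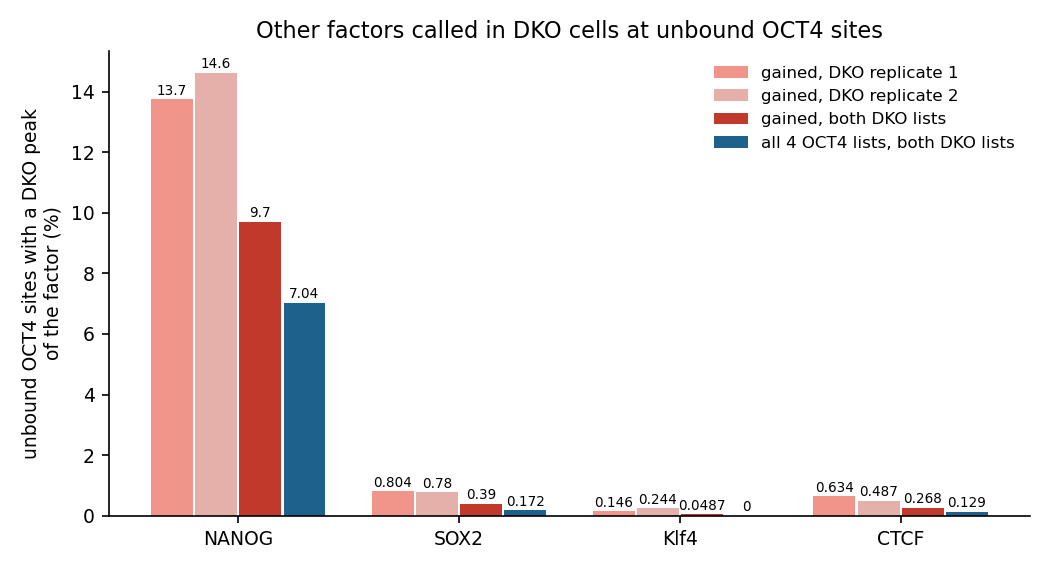
Share of unbound OCT4 sites (y axis, %) with a DKO peak of NANOG, SOX2, Klf4 or CTCF (x axis), for the 4103 members in each DKO list and in both, and for the 2330 unbound sites with OCT4 called in all 4 lists. NANOG stands at 13.7% and 14.6% of the members in the single lists, and every value for the other 3 factors is below 1%.

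A DKO peak that touched a member could still reach a WT peak of the same factor next to it, so strengths are given only for DKO peaks that overlapped no such WT peak. NANOG peaks of this kind lay at 547 and 584 members, with a median −log10 q of 8.88 and 8.48, beside 7.97 and 7.79 over all 13286 and 14185 of them. CTCF peaks of this kind lay at 17 and 14 members, with medians of 7.18 and 8.04 beside 7.88 and 7.72 over all 3867 and 3886. Against the lost sites, with the same factor called in both WT lists, no factor differed by Fisher's exact test across sites adjusted over the 4 factors: NANOG was called at 5 of 45 lost sites (11.1%, adjusted p = 1), SOX2 at 1 (2.22%, adjusted p = 0.678), and Klf4 and CTCF at 0. With 45 lost sites this comparison is imprecise. It also sets DKO lists of the other factors at gained sites against WT lists at lost sites, which differ in length. The DKO lists were longer for NANOG, with 62697 and 64486 against 52307 and 53524 peaks, for SOX2, with 16174 and 17144 against 10324 and 10222, and for CTCF, with 64629 and 64634 against 62069 and 62772, whereas the Klf4 lists overlapped, with 4859 and 5924 against 5545 and 4003. The part of list length in the differences was not tested. With WT replicate 1 or WT replicate 2 left out, the class of lost sites grew to 277 and 190 and NANOG was more frequent at the gained sites by 6.12 and 6.87 percentage points, with adjusted p of 0.00080 and 0.00189. Against the 2330 unbound sites called in all 4 lists, a comparison added after the values were seen, NANOG was called in both DKO lists at 9.70% of members and at 7.04% of these stronger sites (odds ratio 1.42, adjusted p = 0.00111 by the exact test). The difference was 0.682 percentage points without DKO replicate 1 (adjusted p = 0.372) and 1.54 points without DKO replicate 2 (adjusted p = 0.0782) in the same exact test. It was larger, at 7.24 points, within 5 classes of OCT4 strength (adjusted p = 4.0e-11 by the Mantel-Haenszel method) and, at 4.78 points, for NANOG peaks within 500 bp of the OCT4 summit (adjusted p = 2.3e-08 by the exact test). The sites share their libraries and are not replicates of a genotype, so each p describes these lists alone.

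At 15 members 2 of the other factors were called in both DKO lists, and at 2 members 3 of them were. At chr13:70776866-70777190, 510 bp from the start of BC018507, OCT4 had enrichments of 6.60 and 5.66, and NANOG (−log10 q of 12.9 and 17.5), Klf4 (6.89 and 5.55) and CTCF (15.9 and 14.5) were called in both DKO lists. At chr7:20093630-20094139, 81 bp from the start of Trappc6a, a subunit of a vesicle tethering complex, OCT4 had 6.07 and 8.23 and NANOG (3.39 and 14.7), SOX2 (10.4 and 9.29) and Klf4 (3.89 and 6.98) were called. Both lay at promoters.

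The sequence under the members differed from that under the DKO-only OCT4 sites at regions bound in WT cells. The octamer ATGCAAAT lay within 100 bp of the summit, a window of 201 bp, at 718 members (17.5%) and at 584 of the 6013 DKO-only sites bound in WT cells (9.71%), with the odds 1.97 times as high (Fisher's exact test, adjusted p = 5.1e-29 over 7 features). The motif of ESRRB, TCAAGGTCA, was at 1.10% against 2.01% (exact test, adjusted p = 7.4e-04), a call that was lost with a window of 50 bp to either side (−0.343 points, adjusted p = 0.0731 by the exact test) and a difference that reversed with lists of equal length (0.496 points, adjusted p = 0.76 by the exact test). The rule separated these classes by WT calls of SOX2, Klf4, CTCF and NANOG, so the motifs of those factors are bound up with it and are given as a description with no test. The composite TTGTNATGC, which holds a SOX site, was at 4.05% against 6.10%, the SOX motif ACAANG at 44.0% against 54.3%, the KLF motif GGGNGTGG at 6.12% against 10.4% and the CTCF motif AGGNGGC at 9.80% against 12.7%. This comparison was added after the values were seen. With a motif window of 50 bp to either side the KLF difference shrank from −4.31 to −1.385 points and the CTCF difference from −2.875 to −1.476. Among all 35163 OCT4 sites the octamer stood at 12.9% and among the 15049 unbound ones at 15.3%. Where all 4 lists called OCT4, it was at 14.3% of sites bound in WT cells and 16.95% of unbound sites. In windows 5000 bp away from the summits of the members it was at 1.24%.

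**Figure D4:**
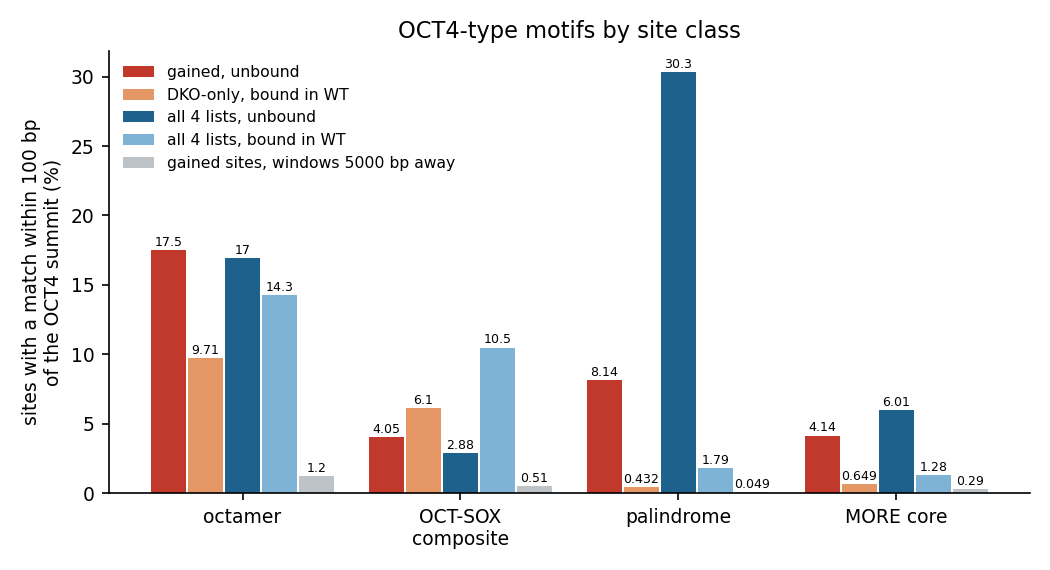
Share of OCT4 sites (y axis, %) with a match to the octamer, the composite element, the palindrome or the MORE core (x axis) within 100 bp of the summit, for 4 site classes and for windows 5000 bp to either side of the member summits (grey). The palindrome is at 8.14% of members and 30.3% of unbound sites called in all 4 lists, and below 2% of both classes bound in WT cells.

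Palindromes were mostly a feature of unbound sites. The palindrome ATGCGCAT was at 334 members (8.14%) and at 26 DKO-only sites bound in WT cells (0.432%). Which protein reads it was not tested. It was more frequent again, at 707 of 2330 (30.3%), where all 4 lists called OCT4 at an unbound site, and at 127 of 7104 (1.79%) where they called it on a WT peak of another factor. Over all 15049 unbound OCT4 sites it was at 11.5%, above its share of the members. In the windows 5000 bp from the members the palindrome was at 0.0487%, and over the starts of protein-coding genes at 0.206%. The MORE core ATGCATATG followed the same order, with 170 members (4.14%), 0.649% of the DKO-only sites bound in WT cells and 6.01% of the unbound sites called in all 4 lists, beside 4.13% of all unbound sites. Both motifs were picked after the sequences of unbound sites had been seen, so their shares are a description with no test. Palindrome and octamer were mostly on different members, with 2 members holding both. An octamer with up to 1 free base, a palindrome or a MORE core was at 1473 members (35.9%). The share of all unbound sites with any of these motifs was not counted, so whether 35.9% sets the members apart was not tested. The octamer with up to 1 free base alone was at 1025 members (24.98%), beside 21.94% of all unbound sites.

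**Figure D5:**
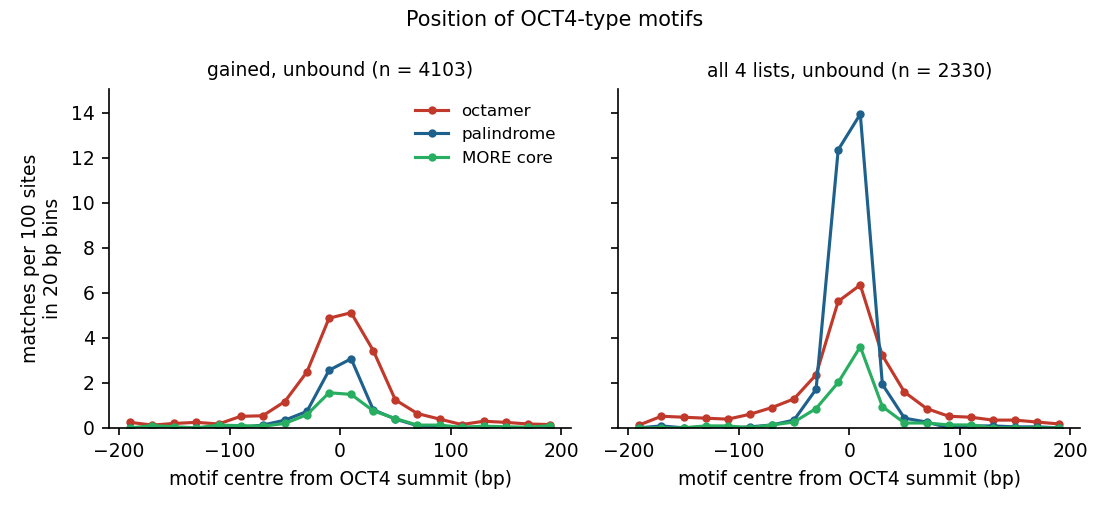
Matches per 100 sites (y axis) by the distance of the motif's centre from the OCT4 summit in bp (x axis, bins of 20 bp), for the members and for the unbound sites called in all 4 lists. All 3 motifs peak at the summit, the palindrome to 3.07 matches per 100 members and 13.9 per 100 sites called in all 4 lists in its highest bin.

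The motifs sat where OCT4 did. Of 338 palindromes within 200 bp of a member's summit, 234 (69.2%) lay within 20 bp of it, and of 918 octamers 416 (45.3%) did. At the unbound sites called in all 4 lists the shares were 84.4% of palindromes and 45.4% of octamers. At the DKO-only sites bound in WT cells they were 63.0% of 27 palindromes and 45.1% of octamers. Members with a palindrome had a median −log10 q of 13.0 and 16.8 in the DKO lists, and those with an octamer 11.1 and 14.2, close to the 11.2 and 14.4 of all members. NANOG was called in both DKO lists at 4 of the 334 members with a palindrome (1.20%) and at 57 of the 718 with an octamer (7.94%). Of the 398 members with NANOG, 57 (14.3%) held an octamer.

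Against the unbound sites called in all 4 lists, the octamer did not differ, with 17.5% against 16.95% (adjusted p = 1, Fisher's exact test over 22 comparisons). The differences that passed lay in position, the SOX motif and GC content. Members lay more often at promoters, meaning no more than 1000 bp from where a protein-coding transcript begins, with 332 of 4103 (8.09%) against 129 of 2330 (5.54%), an odds ratio of 1.5 and an adjusted p of 0.00281 by the same exact test. They more often held the SOX motif, with 44.0% against 40.1% (exact test, adjusted p = 0.0172), and more often had a GC content over 60%, with 2.17% against 1.12% (adjusted p = 0.0172). Members were weaker peaks than these sites, and within 5 classes of OCT4 strength the differences were 1.795, 4.035 and 1.057 percentage points with adjusted p of 0.205, 0.157 and 0.157. Within those classes the composite (2.59 points) and the KLF motif (2.565 points) passed instead. Their p adjusted over the 22 comparisons, by the Mantel-Haenszel method and not an exact test, were 0.00761 and 0.0335. The composite passed as well at an OCT4 −log10 q of at least 5, by 1.43 points (adjusted p = 0.0254 by the exact test), beside the 3 features above, and with a motif window of 50 bp to either side, by 1.27 points (adjusted p = 0.0261 by the exact test). With the same number of top peaks from every list, no feature passed, at differences of 2.135, 3.823 and 1.604 points. The SOX call of the exact test was also lost without WT replicate 2 (2.62 points, adjusted p = 0.0969), without DKO replicate 1 (2.16 points, adjusted p = 0.222) and with a motif window of 50 bp to either side (2.83 points, adjusted p = 0.0575), and the GC call without WT replicate 1 (0.583 points, adjusted p = 0.166). Against the 45 lost sites none of the 11 features passed at an adjusted or an unadjusted threshold of 0.05, the lowest unadjusted p being 0.0514 for lying inside a gene (45.8% against 31.1%). Without WT replicate 1, which raised the lost sites to 277, promoters (4.96 points, adjusted p = 0.0153 by the exact test) and a GC content over 60% (2.07 points, adjusted p = 0.0338) passed.

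Most members were far from promoters. The median distance to the nearest protein-coding start was 29116 bp, 2994 members (73.0%) were more than 10 kb away and 910 (22.2%) more than 100 kb. Other classes were near this. The median was 31862 bp at unbound sites called in all 4 lists, with 23.4% over 100 kb away. At DKO-only sites bound in WT cells it was 26323 bp, with 20.2% over 100 kb away. By the GENCODE vM1 annotation, 1683 members lay in introns, 196 in exons and 2224 outside protein-coding genes. Inside genes lay 45.8% of members, 45.2% of unbound sites called in all 4 lists and 44.4% of DKO-only sites bound in WT cells. The share at promoters did not differ detectably from the DKO-only sites bound in WT cells, at 8.09% against 8.37% (Fisher's exact test, adjusted p = 0.633). A WT peak of another factor lay within 1000 bp, though not on the site, for 879 members (21.4%), and a WT NANOG peak for 566 (13.8%). Other members were seldom close by, with 255 (6.21%) lying within 10 kb of another. The counts of nearby WT peaks and nearby members are given without those of other site classes.

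At the 332 members at promoters, NANOG was called in both DKO lists at 95 (28.6%), beside 303 of 3771 distal members (8.04%), and any of the 4 factors in any DKO list at 47.3% against 17.2%. All unbound OCT4 sites were split the same way, with NANOG at 21.1% of the 1211 at promoters and 5.81% of the 13838 distal ones, and any of the factors at 36.8% and 13.6%. The octamer was at 27 promoter members (8.13%) and at 691 distal ones (18.3%), beside 8.01% and 15.9% of all unbound sites, and the palindrome at 5 (1.51%) and 329 (8.72%), beside 3.47% and 12.2%. The element ACTACAATT, part of a promoter sequence bound by the factors THAP11 and ZNF143, was noticed in the sequences of the members near Tbx6 and Zranb3 printed above. It was at 17 of all members (0.414%), near the 0.355% of all OCT4 sites, and 14 of the 17 were at promoters. That made 4.22% of the promoter members, beside 2.55% of all 2781 OCT4 sites at promoters, 3.88% and 3.97% of the promoter sites called in all 4 lists at unbound and bound regions, and 0.219% of all protein-coding starts. These splits within the members were made after the values were seen and carry no test.

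Members were spread over many genes. Within 100 kb, a member was nearest to 2718 of 22367 protein-coding genes (12.2%). At any distance, 2542 genes had 1 member, 496 had 2 and 168 had at least 3. Magi1, a scaffold of cell junctions, Zfhx3 and Foxp1, both transcription factors, Fbxw7, a ubiquitin ligase subunit, and Ryr2, a calcium channel, had 6 each, and 4931429L15Rik, Auts2, Tbl1xr1, Zc3h12a and Vrk1 had 5 each. Their numbers of OCT4 sites differed: Magi1 was nearest to 50 OCT4 sites in all, Tbl1xr1 to 41 and Vrk1 to 35, whereas Fbxw7 was nearest to 14, of which 6 were members.

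Genes of the pluripotency network had members at 10 of 29 annotated genes (34.5%), beside 12.2% of all protein-coding genes. All 29 were nearest to an OCT4 site of some class within 100 kb, as were 50.6% of all protein-coding genes, and among genes with such a site 24.0% had a member. The strongest was at chr3:34522863-34523315, 25857 bp from the start of Sox2, which encodes the partner of OCT4. It had enrichments of 12.8 and 11.8, and NANOG (−log10 q of 38.2 and 41.8) and SOX2 itself (13.0 and 10.6) were called in both DKO lists. Another member near Sox2, 7800 bp from its start, was weak, with 4.66 and 3.84. Sall4, a zinc-finger factor needed for ESC self-renewal, had 3 members at 3109, 10070 and 15980 bp from its start, with enrichments of 9.86 to 12.6. The farthest of them held a palindrome and no other factor, and the nearest had NANOG in both DKO lists. In the same order, from nearest to farthest, a WT peak of another factor lay 285, 643 and 2572 bp away. Tbx3 had a member with 11.3 and 12.0, and Myc had members with 10.01 and 9.16 and with 6.64 and 6.98.

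Members near the other genes of this list had enrichments of at most 9.66. Esrrb, an orphan nuclear receptor of naive ESCs, had an intronic member with 7.72 and 9.49. Prdm14, a repressor of differentiation, had a member with 8.54 and 7.06 over an octamer. Dppa2 had 6.99 and 9.66, Zfp42 7.87 and 5.75 over a MORE core, and Mycn carried members with 3.93 and 4.70 and with 4.92 and 3.25. The member near Nanog, 5333 bp from its start, had 6.60 and 5.34. It lay 218 bp from a WT OCT4 peak and 146 bp from a WT peak of another factor, so it adjoined a region already bound in WT cells. A WT peak of another factor also lay 21 bp from the Mycn member with 4.92 and 3.25, 97 bp from the Esrrb member and 295 bp from the Prdm14 member. The distance was 375 bp for Dppa2, 673 bp for Zfp42 and 3436 bp for the other Mycn member.

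Early lineage specifiers also had members at 10 of 29 genes (34.5%). Of the 29, 27 had an OCT4 site of some class within 100 kb. Tbx6 had the strongest, described above, 730 bp upstream of its start with enrichments of 23.6 and 23.0, and only 11 bp from a WT peak of another factor. Lef1, a nuclear effector of Wnt signalling, had an intronic member with 15.2 and 14.2 over a MORE core and another with 6.21 and 7.10. T, the mesodermal factor brachyury, had a member 29011 bp away with 11.8 and 15.4. Msx1 had 10.2 and 11.1 over an octamer and Msx2 7.60 and 8.62 over an octamer. Wnt3, a ligand of gastrulation, had 8.85 and 9.43 over a palindrome. Kdr had 7.76 and 6.70, Neurog2 7.4 and 8.38, Otx2 members with 7.87 and 7.39 and with 4.97 and 5.06, and Mesp1 4.97 and 4.66. No other factor was called in any DKO list at any of these 12 sites. Besides Tbx6, a WT peak of another factor lay 50 bp from the Msx2 member, 233 bp from the first Otx2 member and 261 bp from the intronic Lef1 member. The distance was 313 bp for Neurog2, 340 bp for Wnt3 and 664 to 9682 bp for the rest.

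Hox genes, the axial patterning clusters, had members at 3 of 39 (7.69%), and 21 of the 39 had an OCT4 site of some class within 100 kb. The members were near Hoxa10 (10.2 and 11.8), Hoxc12 (8.85 and 8.38 over an octamer) and Hoxd11 (4.19 and 3.35). They lay 195, 981 and 653 bp from a WT peak of another factor. Of 23 DNA and histone modifiers, 5 had members (21.7%), and 19 of the 23 had an OCT4 site of some class within 100 kb. Among all protein-coding genes with such a site, 24.0% had a member. Kdm5b, a demethylase of H3K4, had 4 within its locus, of which the strongest had enrichments of 12.2 and 14.0 over a MORE core and the next 11.4 and 12.9 over a palindrome. Smarca4, the ATPase of the BAF remodelling complex, had an intronic member with 12.1 and 11.6 over a palindrome. Jarid2, a Polycomb cofactor, had a member 65 bp from its start with 11.3 and 9.49, and NANOG called in both DKO lists. Hdac2 had 6.99 and 6.91, and Tet2 had 4.61 and 6.10 over an octamer. These lists are described by counts, and nothing here is shown to be particular to them.

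The members were spread over the chromosomes, from 19.7% of the unbound OCT4 sites on the X chromosome to 29.9% on chromosome 6. Within 5 Mb of Hmgn2, 41 of 128 unbound sites were members (32.0%), and within 5 Mb of Hmgn1 11 of 39 (28.2%), next to 27.3% over the genome.

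In the other cell types, H3K27ac, Brd3, CEBPB and Ikaros were called at shares of the members near to, and slightly above, those of all unbound OCT4 sites. H3K27ac, a mark of active enhancers and promoters, covered 388 and 376 members in WT MEFs (9.46% and 9.16%, beside 8.93% and 8.7% of the 15049 unbound sites) and 368 and 376 in DKO MEFs (8.97% and 9.16%, beside 8.54% and 8.61%), so the 4 counts overlapped between genotypes. Brd3, a reader of acetylated histones, was called at 216 and 213 members in WT MEFs (5.26% and 5.19%, beside 4.82% and 4.8%) and at 80 and 97 in DKO MEFs (1.95% and 2.36%, beside 1.57% and 2%), in lists of 31404 and 33072 against 8970 and 11549 peaks. CEBPB, a leucine zipper factor, was called at 27 and 26 members in WT MEFs (0.658% and 0.634%, beside 0.571% and 0.538%) and at 7 and 10 in DKO MEFs (0.171% and 0.244%, beside 0.126% and 0.186%). In B cells, Ikaros was called at 56 and 74 members in the WT lists (1.36% and 1.80%, beside 1.28% and 1.69%) and at 34 and 30 in the DKO lists (0.829% and 0.731%, beside 0.751% and 0.718%). OCT2, the POU factor of B cells, was called at 3 and 3 members in the WT lists, beside 12 and 10 of all unbound sites, and at 1 and 1 in the DKO lists, which held 10 and 18 peaks and touched 1 and 1 of all unbound sites. P300, a histone acetyltransferase, was called at 7 and 3 members in WT MEFs (0.171% and 0.0731%, beside 0.286% and 0.166% of all unbound sites) and at 1 and 3 in DKO MEFs (0.0244% and 0.0731%, beside 0.0797% and 0.0997%), in each list at a lower share than all unbound sites. H3K27me3, histone H1, Ets1, Irf8 and Pax5 were called in each list at no more than 0.975% of members and 0.857% of all unbound sites. With 2 libraries per genotype an exact permutation test cannot go below p = 0.333, so these counts have no test.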

How the data were processed

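Per the labels, reads of each library were trimmed with cutadapt 1.16, mapped to mm9 with BWA and called with MACS2 2.1.1.20160309. The study's methods add that duplicates were marked with Picard and reads in blacklisted regions were removed. Replicates were not pooled. The deposited lists give fold enrichment (the ratio defined above), −log10 p and −log10 q, a score that is 10 times −log10 q and the summit offset, all computed by the authors. Read totals are not in these lists.

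Here lists were read with Python 3.11.15 and pandas 2.3.3. Reads and background at OCT4 summits were solved from fold enrichment and −log10 p as whole numbers within 0.0005, up to a −log10 p of 200, for 100% of the OCT4 peaks below it. For the NANOG and CTCF lists and the SOX2 list of DKO replicate 2 depth stayed unknown. Summits were annotated with GENCODE vM1 and NCBIM37 sequence, the assembly of mm9, read with pysam 0.24.0. That sequence marks no repeats, so repeats were not analysed. The summit of a site was its strongest in any list. Shares of sites were compared by two-sided Fisher's exact tests (scipy 1.17.1) with Benjamini-Hochberg adjustment over 4 factors, 22 feature comparisons or 7 added ones at a threshold of 0.05, and within 5 strength classes by the Mantel-Haenszel method (statsmodels 0.14.6). Motifs were searched on both strands, and ATGCAAAT is contained in ATGCNAAT. The tests were checked on simulated data. Lists of MEF and B cell antibodies served for counts only, and 64 lists were read in all. The members, gene lists and motifs were chosen with earlier results of these data known. Named sites were the 10 members with the highest lower −log10 q, sites with 3 or more other factors, up to 10 genes nearest to most members (at least 3) and listed genes nearest to a member within 100 kb. Sites named outside that rule, to show a motif, were chosen after their values were seen.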

Additional observations from a re-analysis of the deposited data

How the results depend on the processing

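Of 242 values recomputed under other settings, 203 kept their direction and side of the threshold or, for counts, stayed within 1.5 times or, for differences without a test, within their 95% interval. With the same number of top peaks per OCT4 list, the gained sites fell to 295 and the lost rose to 427, 0 features passed against the unbound sites called in all 4 lists (promoter 2.135, SOX 3.823 and GC 1.604 percentage points), and against the DKO-only sites bound in WT cells the differences of ESRRB (0.496) and promoters (0.483) reversed. That setting tests fewer sites. A −log10 q of 5 left 28 lost sites. Within strength classes the calls of promoter, SOX and GC ended (1.795, 4.035 and 1.057) and those of composite and KLF appeared. A motif window of 50 bp ended the calls of SOX (2.827) and ESRRB (-0.343). It brought those of composite against the sites called in all 4 lists (1.266) and AP-1 against the DKO-only sites bound in WT cells (-0.864). Against the latter, the differences of the KLF and CTCF motifs shrank to -1.385 and -1.476. NANOG against the lost sites reversed to 0.891 with a call in either library and to 0.12 within 500 bp of the summit. With each OCT4 replicate left out in turn, gained sites ranged from 4485 to 8496, lost sites from 67 to 277, NANOG against lost sites from 0.0585 to 6.87 and against sites called in all 4 lists from 0.682 to 2.65, SOX from 2.16 to 4.25, GC from 0.5825 to 2.205, octamer from -1.03 to 0.919, and features passing against lost sites from 0 to 2. The causes were not tested. The octamer against the DKO-only sites bound in WT cells kept its call under all 11 alternatives (6.595 to 10.05). With the OCT4 lists of replicate number 1 or 2 alone, a choice made after seeing the data, 7181 and 8939 sites were gained and 328 and 361 lost. No paired analysis was possible because the tests run across sites and none runs across samples. Depth limits the members with the fewest reads at a summit, 7 and 8 in the DKO lists.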
